A study of Mus musculus with 6 samples.

Results

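Genes of cholesterol synthesis and its control by SREBP2 were measured in mouse heart as 8 members: Hmgcs1, Idi1, Fdps, Fdft1, Sqle, Lss, Cyp51 and Insig1. A probe set, a group of probes that reads 1 transcript on the array, was taken as a member's when the platform annotation gave it that gene symbol and no other. The rule found 21 probe sets for the 8 genes, of 45101 on the array, and all 8 genes are among the 18193 genes with a probe set of their own. The probe set with the highest mean over the 6 arrays stood for each gene.

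Hearts came from male mice aged 2 months, all with a B6 strain background, and each of the 3 groups had 2 arrays. In the RKIP-transgenic group the alpha-MHC promoter, active in heart muscle cells, drove RKIP, a protein that binds and inhibits RAF and the kinases of G-protein-coupled receptors (GRK). The GRK-Inh-transgenic group carried, in the myocardium, a peptide inhibitor directed at GRK alone, and the B6 control mice were wild type. Each transgene was studied in 1 line. Nothing in the labels ties the 2 arrays of a group to different animals, and the p-values therefore describe the spread among these arrays, which may be technical. The RNA was of heart tissue, in which fewer cells of a type and less RNA per cell cannot be told apart.

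Cells make cholesterol from acetyl units through mevalonate, isoprenoid diphosphates, squalene and lanosterol. The transcription factor SREBP2 switches on nearly every gene of this route when sterols in the endoplasmic reticulum fall, after its escort SCAP carries it to the Golgi apparatus for cleavage, and INSIG proteins hold SCAP back when sterols are plentiful. Heart muscle also takes up lipoprotein cholesterol, and the route supplies isoprenoids for ubiquinone, for dolichol and for the lipid anchors of small GTPases.

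SREBP2 binds sterol regulatory elements in promoters, usually beside binding sites of the factors NF-Y and SP1. The reference held a promoter for 5 of the 8 members (Hmgcs1, Lss, Idi1, Cyp51 and Insig1), from RefSeq on the build GRCm38.p6. In the 250 bases before each gene's start, both strands were searched for TCACNCCAC (sterol regulatory element), CCAAT (NF-Y box) and GGGCGG (GC box, bound by SP1). The promoters of Hmgcs1, the member with 2 probe sets called lower in both lines, and of Insig1, the sterol sensor, are shown 5′ to 3′ on the strand of the gene, with every match on either strand in capitals. The Hmgcs1 stretch lies at chr13:119690101-119690350 on the plus strand and the Insig1 stretch at chr5:28071162-28071411 on the plus strand.

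Hmgcs1: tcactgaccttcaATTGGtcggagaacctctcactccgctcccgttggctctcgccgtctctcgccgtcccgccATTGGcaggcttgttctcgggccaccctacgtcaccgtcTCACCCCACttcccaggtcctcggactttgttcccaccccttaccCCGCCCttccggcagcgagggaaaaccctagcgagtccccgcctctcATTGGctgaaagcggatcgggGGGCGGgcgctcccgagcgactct

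Insig1: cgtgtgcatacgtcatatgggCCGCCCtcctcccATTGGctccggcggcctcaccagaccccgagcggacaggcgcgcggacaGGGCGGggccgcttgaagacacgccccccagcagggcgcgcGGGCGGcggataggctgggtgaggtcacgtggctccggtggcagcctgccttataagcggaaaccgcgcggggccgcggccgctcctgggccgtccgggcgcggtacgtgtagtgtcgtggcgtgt

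The Hmgcs1 stretch held 1 match to the sterol regulatory element (TCACCCCAC), beginning 137 bases before the gene's start, with 3 NF-Y boxes and 2 GC boxes. The Insig1 stretch held 1 NF-Y box and 3 GC boxes and 0 matches to the 9 letters of the sterol element. Lss held 1 NF-Y box and 2 GC boxes, Idi1 held 2 and 1, and Cyp51 held 1 and 1, also with 0 matches to the sterol element. Over all 32851 promoters of that length in the reference, 1.05% held the sterol element, 33.8% an NF-Y box and 32.7% a GC box. A match is a description of the letters, and the absence of 1 says only that these letters are not in this window.

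The comparisons ask which heart transcripts go with each transgene. All 8 members passed the filter on dim genes, which required a mean log2(signal + 50) of at least 6.646, a signal of about 50.15 and the median of all probe sets. Sqle and Lss lay just above it, with mean signals of 58.5 and 60.3. A gene was called when its Benjamini-Hochberg adjusted p over the 11254 genes tested was under 0.05 in limma. Fold changes are on the log2(signal + 50) scale, which understates the change of dim genes, and are given with the standard error (SE) of the model.

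Fdft1 was the member called in RKIP-transgenic hearts, and no member was called in GRK-Inh-transgenic against B6 control hearts. Of the 8 members, 1 rose and 0 fell in RKIP-transgenic against B6 control hearts, where 10.8% of all genes tested were called (5.32% higher and 5.51% lower). In GRK-Inh-transgenic against B6 control hearts 0 of 8 rose and 0 fell, where 13.1% of all genes were called (5.86% higher and 7.27% lower). Between the lines, 1 member was higher and 0 were lower in RKIP-transgenic hearts, where 8.82% of all genes were called (4.47% higher and 4.35% lower). Fdft1, the enzyme gene at the branch point to squalene, was called in both cases. With 8 members, counts of 0 and 1 do not stand apart from these shares of all genes. The median log2 fold change of the members was 0.055, 0.025 and -0.037 in the 3 comparisons, and that of all genes tested was -0.017, -0.031 and 0.021. The 2 comparisons with the control share the B6 arrays, so their values are given side by side and are not independent.

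**Figure D1:**
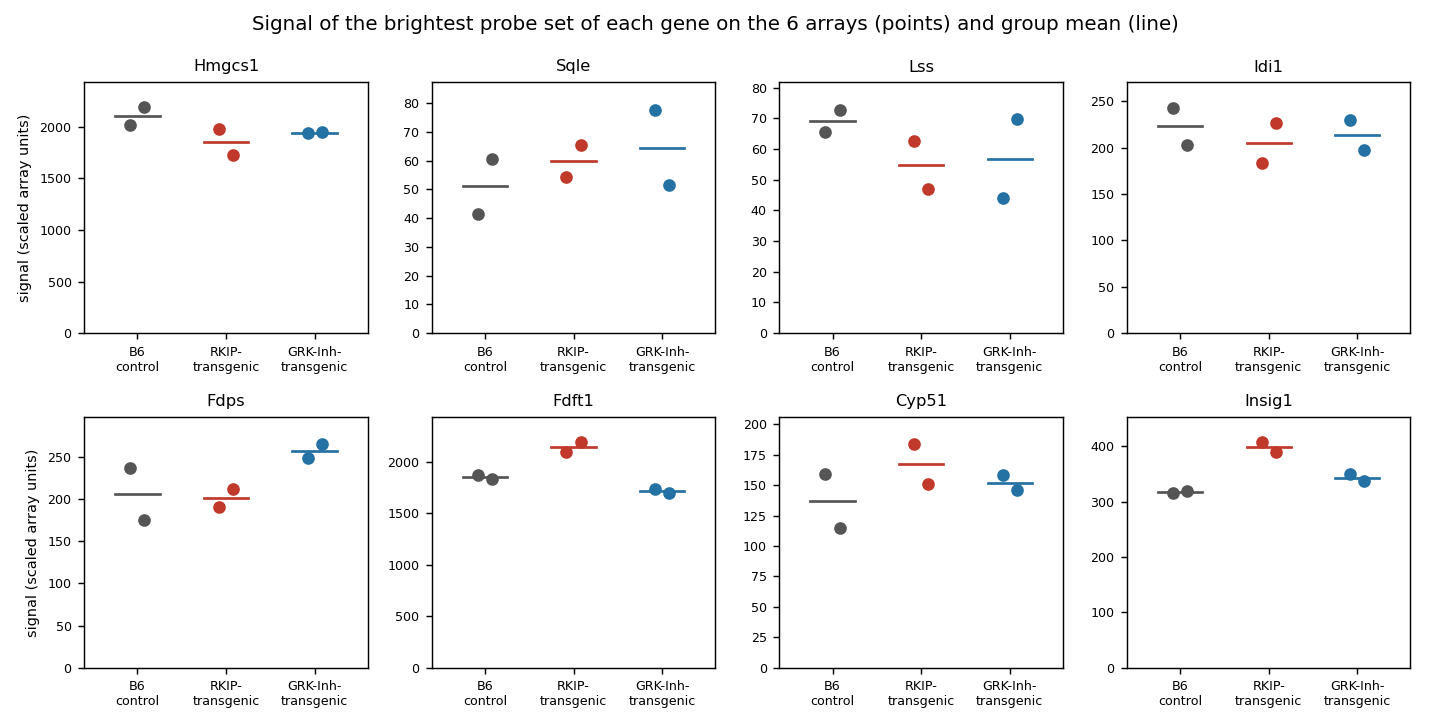
Signal of the brightest probe set of each of the 8 genes (vertical axis, scaled array units, from 0) in the 3 groups (horizontal axis). Points are arrays and lines are group means over 2 arrays. The 2 RKIP-transgenic arrays lie above the other 4 for Fdft1 and Insig1, and the 2 B6 control arrays lie above the other 4 for Hmgcs1.

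Hmgcs1 encodes the cytosolic HMG-CoA synthase, which joins acetoacetyl-CoA and acetyl-CoA on the way to mevalonate. Its brightest probe set, 1433443_a_at, gave signals of 1979.8 and 1731 in RKIP-transgenic, 1937 and 1949 in GRK-Inh-transgenic and 2023 and 2189 in B6 control hearts. Both control arrays were above all 4 transgenic arrays, by small margins. The log2 fold change was -0.18 ± 0.071 (SE) in RKIP-transgenic hearts (adjusted p = 0.142) and -0.11 ± 0.071 in GRK-Inh-transgenic hearts (adjusted p = 0.338), so neither difference was called.

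Hmgcs1 has 5 probe sets, 4 of them above the filter. Their estimated differences varied in size, though a test given below does not show that the probe sets differ. Probe set 1433444_at read 1408 and 1457 in RKIP-transgenic, 1128 and 1226 in GRK-Inh-transgenic and 2051 and 1721 in B6 control hearts. The groups did not overlap on it, with the control arrays highest and the GRK-Inh-transgenic arrays lowest. When every probe set was tested by itself, 1433444_at fell in GRK-Inh-transgenic hearts (log2 fold change -0.65 ± 0.085, adjusted p = 0.000802 in limma) and in RKIP-transgenic hearts (-0.38 ± 0.085, adjusted p = 0.0217).

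Probe set 1433445_x_at of Hmgcs1 read 1781 and 1827 in RKIP-transgenic, 1777 and 1806 in GRK-Inh-transgenic and 2209 and 2078 in B6 control hearts. The transgenic arrays lay together here, below both control arrays, with log2 fold changes of -0.24 ± 0.058 (adjusted p = 0.0299) and -0.25 ± 0.058 (adjusted p = 0.0205) in limma. The suffix x marks a probe set whose probes can also bind other transcripts. The dimmer 1433446_at, at 346 to 395 on the 6 arrays, was not called (adjusted p = 0.705 and 0.621), and 1441536_at lay below the filter, at 3.27 to 27.6.

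The difference between probe sets was tested on the log2 difference of each further probe set from the brightest of its gene, over 8517 such pairs, a test added after the data were seen. For 1433444_at it was -0.54 ± 0.17 in GRK-Inh-transgenic against B6 control hearts (adjusted p = 0.303) and -0.20 ± 0.17 in RKIP-transgenic against B6 control hearts (adjusted p = 0.717). The probe sets of Hmgcs1 are therefore not shown to differ from each other. This limma test called 0 of the 8517 pairs in either comparison with the control.

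Of the 14 member probe sets above the filter, 0 rose and 2 fell in each comparison with the control, all of them of Hmgcs1. In these tests 8.19% of 19771 probe sets were called in RKIP-transgenic hearts (4.3% higher and 3.89% lower) and 10.9% in GRK-Inh-transgenic hearts (5.29% higher and 5.61% lower). Between the lines 1 member probe set, of Fdft1, was higher and 0 were lower, beside 6.08% of all probe sets called (2.85% higher and 3.23% lower). The call of 1433444_at in GRK-Inh-transgenic hearts was kept with each array left out and in each other alternative run (adjusted p 0.000611 to 0.0371). In RKIP-transgenic hearts it was lost without RKIP-transgenic array 1, without RKIP-transgenic array 2 and without B6 control array 1, with log2 fold changes of -0.40 to -0.26 and adjusted p 0.0758 to 0.135, and in 2 other alternatives (0.0664 to 0.149). The calls of 1433445_x_at were lost without either RKIP-transgenic or either B6 control array (adjusted p 0.0512 to 0.156), and without either GRK-Inh-transgenic array or B6 control array 1 (adjusted p 0.0819 to 0.118). Each was also lost in 2 other alternatives (0.0566 to 0.174 and 0.0645 to 0.133).

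**Figure D2:**
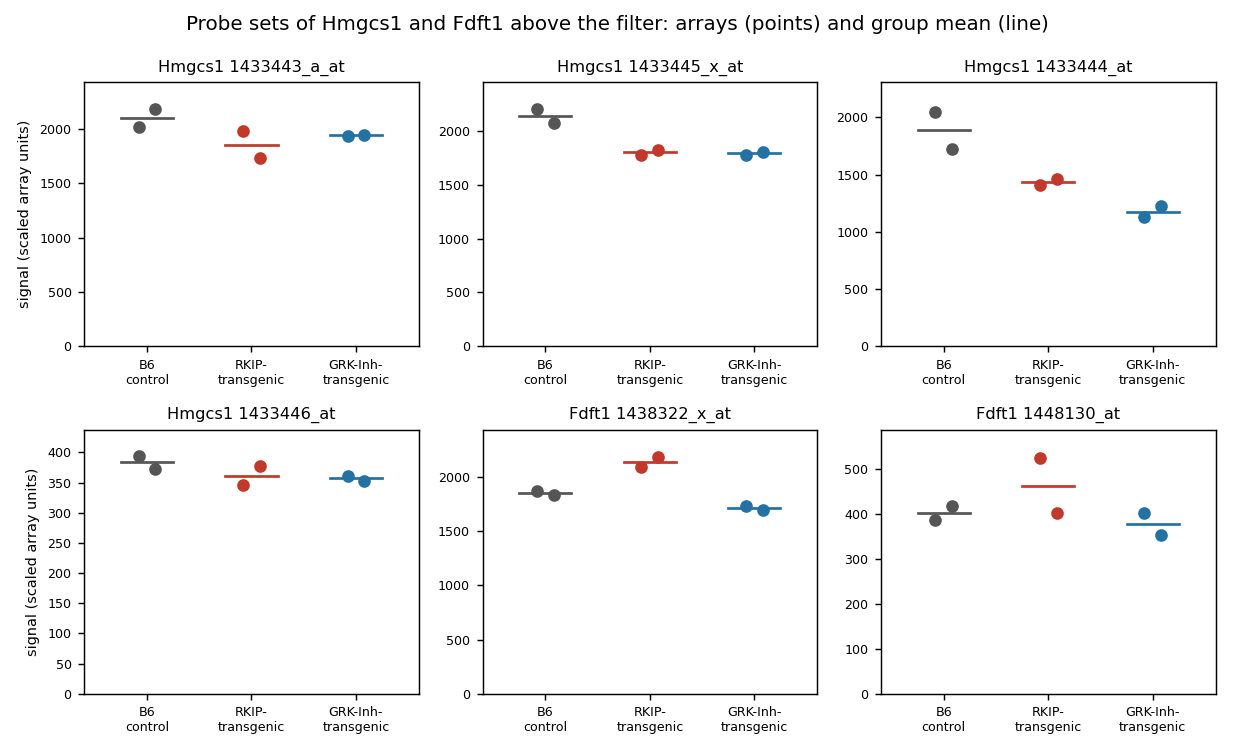
Signal (vertical axis, scaled array units, from 0) of the 4 probe sets of Hmgcs1 and the 2 of Fdft1 above the filter, by group (horizontal axis), with arrays as points and group means over 2 arrays as lines. For Hmgcs1 1433444_at the means are 1886 in B6 control, 1433 in RKIP-transgenic and 1177 in GRK-Inh-transgenic hearts, whereas 1433446_at lies between 346 and 395 on every array.

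The next members make the isoprenoid units. Idi1 encodes the isomerase that turns isopentenyl diphosphate into dimethylallyl diphosphate. Its probe set 1451122_at read 184 and 226 in RKIP-transgenic, 229.9 and 198 in GRK-Inh-transgenic and 243 and 203 in B6 control hearts. The 3 groups overlapped, and the log2 fold changes against the control were -0.099 (95% interval -0.41 to 0.21) and -0.048 (-0.36 to 0.26). The other probe set of Idi1, 1423804_a_at, was dimmer, at 106 to 147, and was not called in any comparison.

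Fdps encodes farnesyl diphosphate synthase, whose product feeds sterols, ubiquinone, dolichol and protein farnesylation. Its signals were 191 and 212 in RKIP-transgenic, 248 and 266 in GRK-Inh-transgenic and 237 and 175 in B6 control hearts. Both GRK-Inh-transgenic arrays lay above the other 4, but the control arrays were far apart. The log2 fold change was 0.27 ± 0.14 in GRK-Inh-transgenic against B6 control hearts (adjusted p = 0.24) and -0.29 ± 0.14 in RKIP-transgenic against GRK-Inh-transgenic hearts (adjusted p = 0.26).

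Fdft1 encodes squalene synthase, which commits farnesyl diphosphate to sterols. Its brightest probe set, 1438322_x_at, read 2093 and 2187 in RKIP-transgenic, 1730.1 and 1697 in GRK-Inh-transgenic and 1874 and 1831 in B6 control hearts. The 3 groups did not overlap, in the order RKIP-transgenic, B6 control, GRK-Inh-transgenic. Compared with GRK-Inh-transgenic hearts, Fdft1 was higher in RKIP-transgenic ones (log2 fold change 0.31 ± 0.056, 1.24-fold, adjusted p = 0.0063 in limma) and higher than in B6 control hearts (0.20 ± 0.056, 1.15-fold, adjusted p = 0.0425). The difference of GRK-Inh-transgenic from B6 control hearts was not called (-0.11 ± 0.056, adjusted p = 0.23).

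The call of Fdft1 against the control was close to the threshold. It was lost with any 1 of the 6 arrays left out (log2 fold change 0.17 to 0.23, adjusted p 0.0605 to 0.201) and in 6 other alternatives (0.0554 to 0.168). The call between the lines was lost without RKIP-transgenic array 2 (0.28, adjusted p = 0.0541) and, at an adjusted p of 0.0825, without the variance trend. The other probe set of Fdft1 above the filter, 1448130_at, read 524 and 402 in RKIP-transgenic, 403 and 353 in GRK-Inh-transgenic and 387 and 418 in B6 control hearts. Its groups overlapped, and its log2 fold changes of 0.26 ± 0.13 between the lines (adjusted p = 0.296) and 0.17 ± 0.13 against the control (adjusted p = 0.468) were not called. The remaining 2 probe sets, 1438918_at and 1438919_x_at, lay below the filter and were not tested. Against the control these dim probe sets went the other way. Their mean signals were 17.1 and 17.5 in RKIP-transgenic and 43.1 and 42.4 in B6 control hearts. Both calls of Fdft1 thus rest on its brightest probe set, which carries the suffix x.

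Sqle encodes squalene epoxidase, a rate-limiting oxygen-dependent step, and Lss encodes lanosterol synthase, which closes the sterol ring. Sqle read 54.3 and 65.6 in RKIP-transgenic, 77.6 and 51.5 in GRK-Inh-transgenic and 41.5 and 60.7 in B6 control hearts. Lss, by its brightest probe set 1420013_s_at, read 62.6 and 47.0 in RKIP-transgenic, 43.9 and 69.9 in GRK-Inh-transgenic and 65.5 and 72.9 in B6 control hearts. Both RKIP-transgenic arrays of Lss lay just below both control arrays, and otherwise the arrays of a group overlapped with those of the others on both genes. The 95% intervals of the log2 fold change against the control ran from -0.32 to 0.57 and from -0.27 to 0.62 for Sqle. For Lss they ran from -0.62 to 0.25 and from -0.60 to 0.27. Each interval held 0, and changes within these bounds, in either direction, were not excluded. The further probe sets of Lss, 1426913_at and 1420014_at, lay below the filter.

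Cyp51 encodes lanosterol demethylase, a cytochrome P450 of the sterol route. Its brightest probe set, 1450646_at, read 184 and 151 in RKIP-transgenic, 158 and 146 in GRK-Inh-transgenic and 159 and 115 in B6 control hearts. The groups overlapped, with log2 fold changes of 0.23 ± 0.16 (adjusted p = 0.422) and 0.12 ± 0.16 (adjusted p = 0.666). On 1422533_at the RKIP-transgenic arrays, at 142 and 141, were above the GRK-Inh-transgenic arrays at 127 and 120.1 and the B6 control arrays at 124 and 116, again without a call (0.17 ± 0.14, adjusted p = 0.514).

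Insig1 encodes the sterol sensor that retains SCAP and is itself a target of SREBP2. Its only probe set read 407 and 389.9 in RKIP-transgenic, 349 and 337 in GRK-Inh-transgenic and 316 and 318 in B6 control hearts. The 3 groups did not overlap, and the order was RKIP-transgenic, GRK-Inh-transgenic, B6 control. The log2 fold change was 0.29 ± 0.098 in RKIP-transgenic hearts (1.22-fold, 95% interval 0.072 to 0.50, adjusted p = 0.0925) and 0.098 ± 0.098 in GRK-Inh-transgenic hearts (adjusted p = 0.568), and neither was called. Over the alternatives its adjusted p in RKIP-transgenic hearts was 0.0636 to 0.294.

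In RKIP-transgenic against B6 control hearts, 4 of the 8 members had arrays that did not overlap, 2 higher and 2 lower. Over all genes tested 53.4% did not overlap (24.2% higher and 29.2% lower), so the share among the members was near that of all genes. In GRK-Inh-transgenic against B6 control hearts the members gave 2 higher and 2 lower, beside 56.9% of all genes (23.8% higher and 33.1% lower). Between the lines they gave 2 higher and 1 lower, beside 52.9% (29.7% higher and 23.2% lower).

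**Figure D3:**
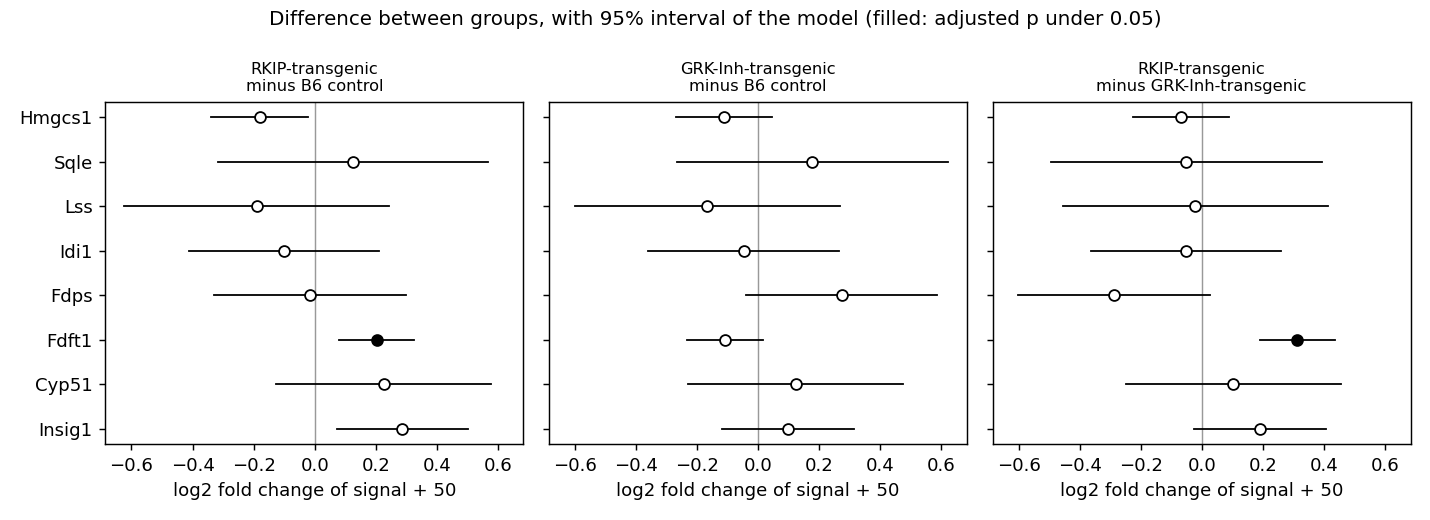
Log2 fold change of signal + 50 (horizontal axis) of the 8 members in the 3 comparisons, as points with the 95% interval of the limma model over 6 arrays. Filled points passed an adjusted p of 0.05: Fdft1 at 0.20 in RKIP-transgenic against B6 control hearts and at 0.31 between the lines.

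The members did not move in 1 direction from array to array. The mean of their centred log2 values spanned -0.053 to 0.026 over the 6 arrays, with members going both ways. Pearson's r between pairs of members over the 6 arrays ran from -0.72 for Sqle and Lss to 0.74 for Fdft1 and Insig1, a description of arrays that fall into 3 groups. Of the 2339 other genes called in at least 1 comparison, the 5 most like the mean of the members over the 6 arrays were 1700025G04Rik (r = 0.96), Vwa7 (0.93), Pcyox1 (0.93), Kpna1 (0.91) and Macrod1 (0.91). These r are the highest of many genes already called between the same groups, and the mean they follow spanned little. They are a description and do not show shared control.

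Of 14 enzyme genes listed, 11 were tested. In RKIP-transgenic against B6 control hearts 0 of 11 rose and 1 fell, in GRK-Inh-transgenic against B6 control hearts 0 rose and 1 fell, and between the lines 1 was higher in RKIP-transgenic hearts, beside 10.8%, 13.1% and 8.82% of all genes called. With 11 genes, a count of 1 does not stand apart from these shares. The gene called each time was Hsd17b7, a ketoreductase of sterol demethylation. It read 546 and 578 in RKIP-transgenic, 367 and 330.4 in GRK-Inh-transgenic and 735 and 722 in B6 control hearts on its brightest probe set, 1457248_x_at. The 3 groups stood apart.

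Hsd17b7 fell in GRK-Inh-transgenic hearts (log2 fold change -0.97 ± 0.089, 0.512-fold, adjusted p = 5.44e-05 in limma) and in RKIP-transgenic hearts (-0.35 ± 0.089, adjusted p = 0.0321). Between the lines it was higher with RKIP (0.62 ± 0.089, adjusted p = 0.00178). Both calls that involve GRK-Inh-transgenic hearts were kept in all 18 alternatives, and the call of RKIP-transgenic against B6 control hearts was lost without any 1 of the 4 arrays of those groups (-0.39 to -0.31, adjusted p 0.0759 to 0.159) and in 2 other alternatives (0.057 to 0.0879). Its further probe sets 1448865_at and 1417871_at, tested by themselves, fell in GRK-Inh-transgenic hearts too (-0.60 ± 0.11, adjusted p = 0.00684, and -0.54 ± 0.14, adjusted p = 0.0339). In RKIP-transgenic hearts they gave -0.23 and -0.27 and were not called (adjusted p = 0.254 and 0.281). Between the lines they gave 0.37 and 0.26, also without a call in limma (adjusted p = 0.0884 and 0.327). The call between the lines thus rests on the brightest probe set, which carries the suffix x.

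The remaining 10 enzymes were not called in any comparison. The median log2 fold change of the 11 genes was 0.21 in RKIP-transgenic hearts, -0.030 in GRK-Inh-transgenic hearts and 0.26 between the lines, beside -0.017, -0.031 and 0.021 for all genes. Examples are the mevalonate pathway kinase Pmvk (0.32 ± 0.15 in RKIP-transgenic against B6 control hearts, adjusted p = 0.208), the sterol oxidase Msmo1 (0.32 ± 0.16, adjusted p = 0.244) and the desaturase Sc5d (0.26 ± 0.11, adjusted p = 0.169). Lbr, the gene of a sterol reductase of the nuclear envelope, gave -0.17 ± 0.065 (adjusted p = 0.125), with both arrays below the control. In that comparison 5 of the 11 had arrays that lay wholly above the control and 3 wholly below, beside 24.2% and 29.2% of all genes. In GRK-Inh-transgenic against B6 control hearts 0 lay wholly above and 3 wholly below, beside 23.8% and 33.1%. Between the lines 7 were wholly higher and 1 wholly lower in RKIP-transgenic hearts, beside 29.7% and 23.2%.

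Among genes that control SREBP, Srebf1 and Mbtps1 fell in both lines. Srebf1 encodes SREBP1, the relative of SREBP2 that drives mainly fatty acid synthesis. It read 572 and 537 in RKIP-transgenic, 601 and 531 in GRK-Inh-transgenic and 770.1 and 818 in B6 control hearts, with the control arrays above all others. The log2 fold changes were -0.48 ± 0.089 (adjusted p = 0.00618 in limma) and -0.46 ± 0.089 (adjusted p = 0.00621). Without B6 control array 2 both calls were lost, and the second also without GRK-Inh-transgenic array 2 (adjusted p = 0.0598, and 0.0566 to 0.0586). The first was also lost without the variance trend (0.0587).

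Mbtps1 encodes the first protease that cuts SREBP in the Golgi apparatus. It read 729 and 784 in RKIP-transgenic, 797 and 780.2 in GRK-Inh-transgenic and 919 and 1005 in B6 control hearts. It fell by 0.33 and 0.27 on the log2 scale (adjusted p = 0.0227 and 0.0449 in limma). The first call was lost without RKIP-transgenic array 1 or B6 control array 2 (adjusted p 0.138 to 0.147) or without the variance trend (0.0983). The second was lost without any 1 of the 4 arrays compared (adjusted p 0.0641 to 0.218) and in 4 other alternatives (0.0548 to 0.113). Its dimmer probe set 1431385_a_at was not called (-0.093 and -0.011).

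Srebf2, the gene of SREBP2 itself, was dim and variable. It read 132 and 138 in RKIP-transgenic, 76.9 and 71.6 in GRK-Inh-transgenic and 79.6 and 139 in B6 control hearts. The control arrays spanned nearly the range of both lines, and no comparison was called (adjusted p = 0.476, 0.287 and 0.0941). Scap, the escort, was not called either (adjusted p = 0.936 and 0.422). Erlin1, which encodes an endoplasmic reticulum protein that takes part in degrading HMG-CoA reductase, rose in GRK-Inh-transgenic hearts from 501 and 423 to 637 and 626 (0.42 ± 0.10, adjusted p = 0.0202 in limma). Between the lines it was lower with RKIP (-0.45 ± 0.10, adjusted p = 0.0209). The first call was lost without either GRK-Inh-transgenic array or B6 control array 2 (adjusted p 0.0799 to 0.138), and the call between the lines without either GRK-Inh-transgenic array or RKIP-transgenic array 2 (adjusted p 0.087 to 0.117). Without the variance trend the first Erlin1 call was lost (0.0733), and the second was lost in 2 other alternatives (0.051 to 0.0872). Of the 10 genes tested in this list 0 rose and 2 fell in RKIP-transgenic hearts, and 1 rose and 2 fell in GRK-Inh-transgenic hearts. Of all genes, 5.32% rose and 5.51% fell in the first comparison and 5.86% rose and 7.27% fell in the second.

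Of other SREBP2 targets in sterol uptake and transport, 1 of 5 listed genes was tested. It was Stard4, the gene of a cytosolic sterol carrier, which read 189 and 166 in RKIP-transgenic, 202 and 193 in GRK-Inh-transgenic and 224 and 234 in B6 control hearts. Both lines lay below both control arrays, without a call (-0.30 ± 0.12, adjusted p = 0.168, and -0.17 ± 0.12, adjusted p = 0.405).

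In the isoprenoid branch, 1 of 8 tested genes rose in GRK-Inh-transgenic against B6 control hearts, and 0 were called in the other 2 comparisons, beside 13.1%, 10.8% and 8.82% of all genes called. Nus1 encodes a subunit of the enzyme that makes dolichol, the lipid carrier of protein glycosylation. It read 1581 and 1449.8 in RKIP-transgenic, 1736 and 1785 in GRK-Inh-transgenic and 1317 and 1323 in B6 control hearts. It rose in GRK-Inh-transgenic hearts (0.40 ± 0.064, 1.32-fold, adjusted p = 0.00189 in limma), in all 18 alternatives, and its difference in RKIP-transgenic hearts was 0.19 ± 0.064 (adjusted p = 0.0855). Between the lines it was not called (-0.21 ± 0.064, adjusted p = 0.0667), except with the arrays shifted to 1 median (adjusted p = 0.0356) and when dim genes were cut at the 75th percentile (0.0492). Its further probe sets 1434304_s_at and 1460563_at rose in GRK-Inh-transgenic hearts by 0.50 and 0.53 on the log2 scale (adjusted p = 0.0156 and 0.00387), and its 3 dimmer ones above the filter were not called (adjusted p 0.192 to 0.273). Of these, 1420646_at and 1419915_at gave 0.23 and 0.40, and 1440478_at went the other way, at -0.34. Dhdds, the gene of its partner subunit, gave 0.35 ± 0.13 and 0.27 ± 0.13 without a call (adjusted p = 0.121 and 0.199).

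Genes of sterol export, storage and transport, many of which respond to LXR, the receptor for oxidised sterols, formed the last list. Of 12 genes tested, 1 rose and 4 fell in RKIP-transgenic hearts, and 1 rose and 6 fell in GRK-Inh-transgenic hearts, beside 5.51% and 7.27% of all genes called lower and 5.32% and 5.86% called higher. The median log2 fold change of the list was -0.14 and -0.28, beside -0.017 and -0.031 for all genes. Of the 12 genes, 4 and 3 had a log2 fold change above 0. Among them was Nr1h3, at 0.46 and 0.17 without a call in limma (adjusted p = 0.131 and 0.592). Ch25h, Cyp27a1 and Lipa gave -0.13 to 0.083, and Scarb1 gave -0.26 and -0.19, also without a call. Between the lines 1 gene was higher in RKIP-transgenic hearts and 0 were lower, beside 4.47% and 4.35% of all genes.

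Abca1, the exporter that loads cholesterol onto apolipoprotein A1, fell in both lines. It read 1337 and 1361 in RKIP-transgenic, 1344 and 1466 in GRK-Inh-transgenic and 2334 and 2149 in B6 control hearts. Every transgenic array was far below both controls. The log2 fold changes were -0.71 ± 0.067 (0.611-fold, adjusted p = 8.32e-05 in limma) and -0.66 ± 0.067 (0.635-fold, adjusted p = 0.000113), and both calls were kept in all 18 alternatives. Its dim probe set 1421839_at, at 45.7 to 89.6, was not called (adjusted p = 0.135 and 0.46).

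Apoe, the gene of the lipoprotein ligand apolipoprotein E, stood in 3 separate levels. It read 2109 and 2028 in RKIP-transgenic, 1747 and 1736 in GRK-Inh-transgenic and 2399 and 2380.3 in B6 control hearts. It fell in GRK-Inh-transgenic hearts (-0.45 ± 0.054, adjusted p = 0.000336 in limma) in all 18 alternatives and in RKIP-transgenic hearts (-0.20 ± 0.054, adjusted p = 0.0354). Leaving out any 1 of the 6 arrays ended the second call (adjusted p 0.052 to 0.171), as did 2 other alternatives (0.0503 to 0.161). The difference between the lines was 0.24 ± 0.054 (adjusted p = 0.0197), and that call was lost without any 1 of the 4 transgenic arrays (adjusted p 0.0548 to 0.123) and in 2 other alternatives (0.0535 to 0.129).

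Npc1 and Npc2 encode the proteins that pass cholesterol out of the lysosome. Npc1 read 452 and 519 in RKIP-transgenic, 489 and 511 in GRK-Inh-transgenic and 643 and 706 in B6 control hearts. It fell by 0.44 and 0.40 on the log2 scale (adjusted p = 0.0144 and 0.0191 in limma). The call in RKIP-transgenic hearts was lost without RKIP-transgenic array 1 or B6 control array 2 (adjusted p 0.101 to 0.111), and that in GRK-Inh-transgenic hearts without either GRK-Inh-transgenic array or B6 control array 2 (adjusted p 0.061 to 0.129). Without the variance trend both Npc1 calls were lost (0.0767 and 0.0685). Npc2 fell from 2347 and 2308 to 1915 and 1956 in RKIP-transgenic hearts (-0.26 ± 0.060, adjusted p = 0.0199), a call lost without any 1 of those 4 arrays (adjusted p 0.0645 to 0.102), and to 1894 and 1725 in GRK-Inh-transgenic hearts (-0.36 ± 0.060, adjusted p = 0.00288). Without the variance trend both Npc2 calls were lost (0.135 and 0.055). Its further bright probe set 1416901_at gave -0.093 (adjusted p = 0.391) and -0.21 (adjusted p = 0.0471). The dim probe set 1455768_at of Npc2 went the other way, at 0.22 and 0.14, without a call (adjusted p = 0.475 and 0.651).

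Nceh1, the gene of an enzyme that frees cholesterol from its esters, was the member of this list that rose. It read 5219.6 and 5134 in RKIP-transgenic, 4866 and 4804 in GRK-Inh-transgenic and 3437 and 4048 in B6 control hearts. The log2 fold changes were 0.47 ± 0.066 (adjusted p = 0.00131 in limma) and 0.37 ± 0.066 (adjusted p = 0.00396), lost only with a variance without trend among the 18 alternatives (adjusted p = 0.071 and 0.0831). Its other probe sets 1455227_at and 1435134_at rose too, by 0.36 and 0.42 in RKIP-transgenic hearts (adjusted p = 0.00788 and 0.0413) and by 0.29 and 0.47 in GRK-Inh-transgenic hearts (adjusted p = 0.0191 and 0.0206).

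The genes of the exporter ABCG1 and of MYLIP, a ubiquitin ligase that degrades the lipoprotein receptor, are LXR targets and were called in GRK-Inh-transgenic hearts. Mylip read 825 and 779 in RKIP-transgenic, 644 and 681 in GRK-Inh-transgenic and 950.5 and 898 in B6 control hearts. It fell in GRK-Inh-transgenic hearts (-0.45 ± 0.077, adjusted p = 0.00288 in limma, in all 18 alternatives), and gave -0.19 ± 0.077 in RKIP-transgenic hearts (adjusted p = 0.142). The difference between the lines was 0.26 ± 0.077 (adjusted p = 0.065), and among the alternatives it was called only when dim genes were cut at the 75th percentile (0.0483). Abcg1 fell from 296 and 290.1 to 222 and 203 in GRK-Inh-transgenic hearts (-0.39 ± 0.11, adjusted p = 0.0433 in limma). The call was lost with any 1 of the 6 arrays left out (adjusted p 0.0558 to 0.189) and in 6 other alternatives (0.0518 to 0.0899).

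**Figure D4:**
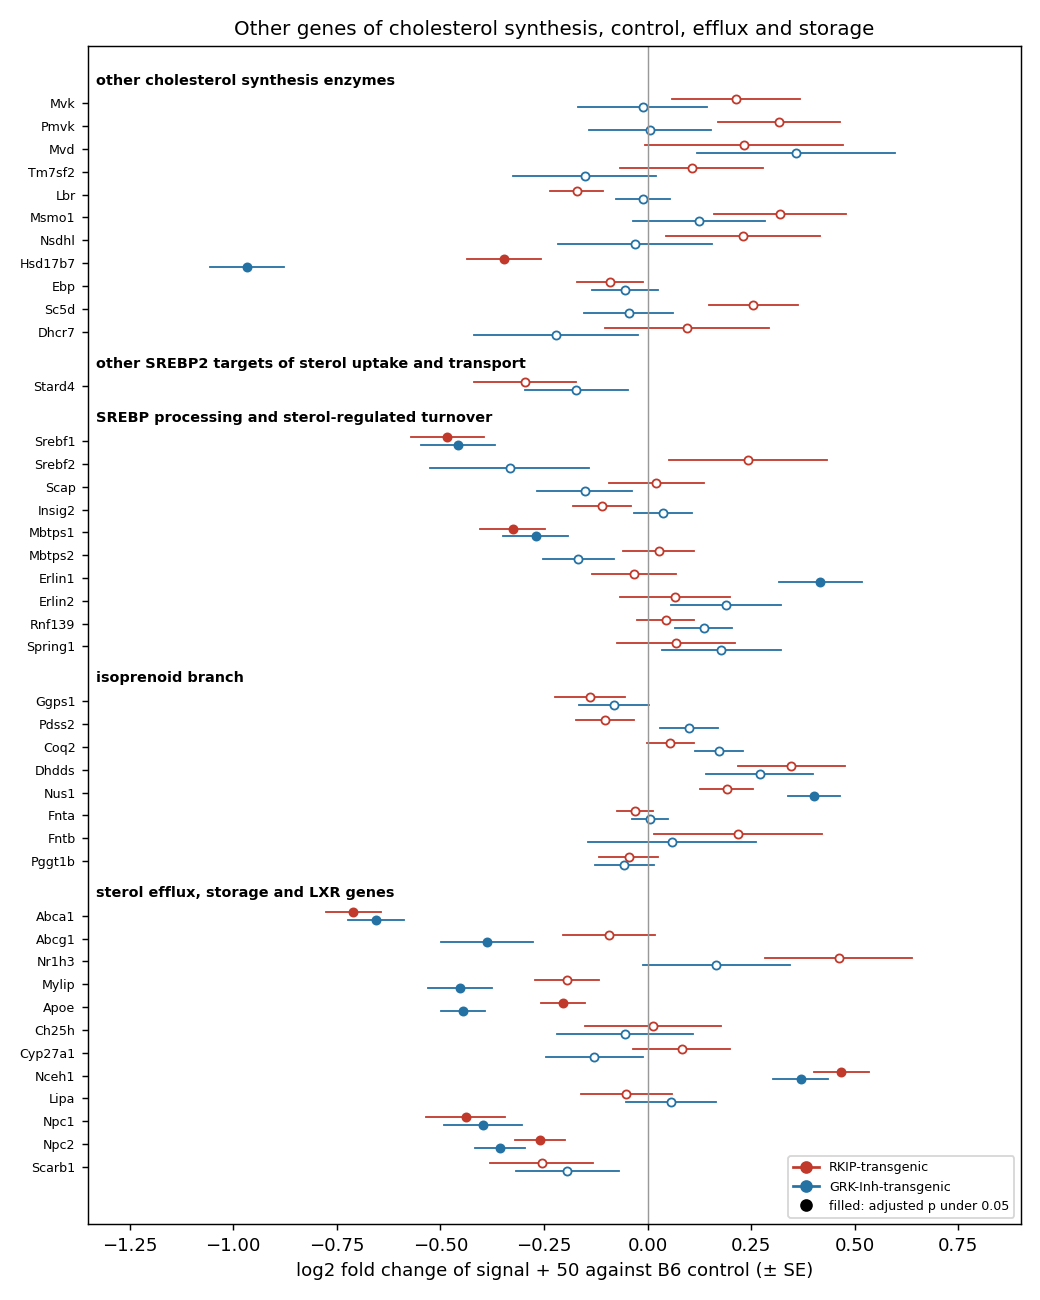
Log2 fold change of signal + 50 against B6 control (horizontal axis, ± SE) of every tested gene of 5 lists around cholesterol, in RKIP-transgenic and GRK-Inh-transgenic hearts (2 arrays each, 2 shared control arrays). Filled points passed an adjusted p of 0.05, among them Abca1 at -0.71 and -0.66, Hsd17b7 at -0.35 and -0.97, and Nceh1 at 0.47 and 0.37.

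Markers of cell types were set beside these genes. Of all genes, 5.51% were called lower and 5.32% higher in RKIP-transgenic against B6 control hearts, and 7.27% and 5.86% in GRK-Inh-transgenic hearts. The tissue label was met: all 8 cardiomyocyte markers were tested, with a summed signal of 217700 to 218830 in RKIP-transgenic, 212460 to 213670 in GRK-Inh-transgenic and 218530 to 226020 in B6 control hearts. All 12 fibroblast markers lay below both control arrays in each line, beside 29.2% and 33.1% of all genes, and 8 and 10 of them were called lower. Their summed signal was 64394 to 66390 in RKIP-transgenic, 61124 to 61341 in GRK-Inh-transgenic and 81793 to 83343 in B6 control hearts.

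Smooth muscle and pericyte markers gave 6 and 5 of 10 called lower, with sums of 26888 to 26944 and 27111 to 27370 beside 31898 to 32602 in the control. Macrophage markers gave 1 and 3 of 10 called lower, with sums of 12351 to 12733 and 11176 to 11179 beside 13016 to 13405. Endothelial markers gave 2 lower and 0 higher of 10 in RKIP-transgenic hearts and 2 lower and 1 higher in GRK-Inh-transgenic hearts, with sums of 8199 to 8354, 9051 to 9308 and 9185 to 9399. With 10 genes, counts of 1 or 2 do not stand apart from the shares of all genes.

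White adipocyte markers gave 3 of 6 called lower in RKIP-transgenic hearts, where they summed to 21168 to 22086 beside 26739 to 28129 in the control. In GRK-Inh-transgenic hearts 1 was lower and 1 higher, at 25066 to 25240. This sum follows bright genes most, such as Fabp4 (mean log2 value 14.29), which was called lower in both lines. The median log2 fold change of the 6 tested was -0.369 in RKIP-transgenic hearts, with 1 above 0. In GRK-Inh-transgenic hearts it was 0.029, with 4 above 0, so the lower sum there does not give the direction of the list. Of 7 hepatocyte markers measured, Alb, Fgb and Apoa1 were below the filter level on every array. The list summed to 479 to 533, 588 to 589 and 656 to 696 in the order of groups above. Of the 4 tested, Cyp2e1 was called lower in RKIP-transgenic hearts, and 0 were called in GRK-Inh-transgenic hearts. In each line 2 of the 4 had a log2 fold change above 0, so the lower sums do not give the direction of the list. Of 7 Schwann and neuronal markers measured, Tubb3 was below the filter level on every array, with sums of 409 to 468, 390.2 to 445 and 378 to 446. The actin control probe sets, whose 3′ signal divided by the 5′ signal reads RNA integrity, gave 2.92 to 2.96 in RKIP-transgenic, 3 to 3.03 in GRK-Inh-transgenic and 3.11 to 3.25 in B6 control hearts. The part of these cell types and of RNA quality in the differences of Hmgcs1, Abca1, Apoe, Npc1, Npc2 and Srebf1 was not tested.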

How the data were processed

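Heart RNA of 6 samples was measured on Affymetrix arrays. The titles gave each sample's group and replicate number. The authors deposited an intensity per probe set, a linear signal made with GCOS per the submitters' processing notes, with the version not given in the sources used here. The values had a 2% trimmed mean of 300.002 on each of the arrays, and median signals were 50.3 to 55.0. Precision was limited by the number of arrays (median SE 0.115).

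Of 45101 probe sets, 64 controls were set aside, and 34945 had a single gene symbol, 932 several and 9160 none in the annotation given. Signals were transformed as log2(signal + 50) without further normalization. The brightest probe set stood for each of 18193 genes, and 11254 genes passed the filter at the median. A single limma model (version 3.58.1, R 4.3.3) of all 6 arrays, with 3 residual and 7.6 prior degrees of freedom and a variance trend, gave two-sided p-values, adjusted by Benjamini-Hochberg. The procedure was tested on simulated data. The members and lists were chosen with earlier results of these data known. Besides the members, up to 6 called genes of each list with separate arrays were named per comparison, with Srebf1, Srebf2, Scap and Abca1; uncalled list genes with values, further probe sets and markers were chosen after their values were seen. Listed genes without a probe set in the table were not analysed here. Alternatives were quantile normalization, a shift to 1 median, offsets of 16 and 200, no filter or the 75th percentile, all probe sets, other variance models, the compared arrays only, the replicate block, an adjusted p under 0.01 and each array left out. Plots used matplotlib 3.10.9 in Python 3.11.15.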

Additional observations from a re-analysis of the deposited data

Results flagged for a closer look

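The effects of the 2 transgenes against the control differed, by the test of the difference between the lines, for 4 of the genes described. The list genes described were picked partly by their calls in this same test. The count of 4 therefore does not say how common such differences were. As RKIP-transgenic minus GRK-Inh-transgenic on the log2 scale, the differences were 0.312 for Fdft1, 0.619 for Hsd17b7, 0.241 for Apoe and -0.45 for Erlin1. Among the 8 members, Fdft1 was the only one with such a difference, beside 8.82% of all genes tested. With 8 members, a count of 1 does not stand apart from that share. The call was kept in all 18 alternatives for Hsd17b7, and was lost for Fdft1, Apoe and Erlin1 with some arrays left out. The further probe sets of Fdft1 and Hsd17b7 above the filter were not called between the lines.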

How the results depend on the processing

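No alternative gave a call to a member in GRK-Inh-transgenic against B6 control hearts. In RKIP-transgenic hearts the count of 1 higher member became 0 with arrays shifted to 1 median, no filter, all probe sets, a variance without trend, the compared arrays only, the replicate block, an adjusted p under 0.01 and each array left out (0 to 0). Between the lines it became 0 with a variance without trend and was 0 to 1 with an array left out. With a filter at the 75th percentile only 3 members were left, with medians of 0.20 in RKIP-transgenic against B6 control hearts and 0.19 between the lines. The members' median with an array left out was -0.035 to 0.084, -0.052 to 0.08 and -0.037 to 0.075 in the 3 comparisons.

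Of member probe sets, the 2 lower ones in RKIP-transgenic hearts became 0 with no filter, a variance without trend and an adjusted p under 0.01, and 0 to 2 with an array left out, and 1 was higher with the filter at the 75th percentile. The 2 lower ones in GRK-Inh-transgenic hearts became 1 with arrays shifted to 1 median, a variance without trend and an adjusted p under 0.01, and 1 to 2 with an array left out. The 1 higher one between the lines became 0 with a variance without trend and was 0 to 2 with an array left out. Directions turned only for differences that were not called. They were Fdps in RKIP-transgenic against B6 control hearts with quantile normalization (0.012) and Hmgcs1 1433445_x_at between the lines with arrays shifted to 1 median (-0.03). With an array left out, the range in RKIP-transgenic against B6 control hearts crossed 0 for Idi1 (-0.22 to 0.021), Fdps (-0.192 to 0.161), Sqle (-0.012 to 0.263) and Erlin1 (-0.144 to 0.078). In GRK-Inh-transgenic against B6 control hearts it did for Lss (-0.343 to 0.009), Idi1 (-0.154 to 0.058) and Cyp51 (-0.048 to 0.294). Between the lines it did for Sqle (-0.217 to 0.113), Idi1 (-0.172 to 0.069), Lss (-0.198 to 0.154), Cyp51 (-0.005 to 0.211), Hmgcs1 (-0.163 to 0.026), Hmgcs1 1433445_x_at (-0.008 to 0.028), Npc1 (-0.132 to 0.048), Srebf1 (-0.108 to 0.056) and Abca1 (-0.116 to 0.006). The cause was not tested.

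Over all genes tested, RKIP-transgenic against B6 control hearts gave 1219 calls, 840 with no filter, 297 with a variance without trend and 519 at an adjusted p under 0.01. GRK-Inh-transgenic against B6 control hearts gave 1477, 1111, 731 and 769, and the lines against each other 993, 617, 255 and 416. Leaving out 1 array of the groups compared gave 621 to 737, 896 to 921 and 465 to 542 calls, and leaving out 1 array of the group not compared gave 1123 to 1126, 1476 to 1483 and 873 to 874. The calls of single genes counted as lost in other alternatives leave aside the stricter adjusted p of 0.01. The replicate numbers did not pair the arrays: differences between replicates 1 and 2 correlated at -0.035 to 0.026 between groups, and the replicate block gave 1150, 1434 and 905 calls. With 1 array of a group left out, the remaining array was assumed to vary like the other groups. Members near a signal of 60 (Sqle and Lss) were close to the filter, where the members' 95% intervals were widest.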
